A study of Homo sapiens with 8 samples.

Results

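DDAH1, the gene for dimethylarginine dimethylaminohydrolase 1 (ENSG00000153904), was described here isoform by isoform in BEAS-2B, an established human bronchial epithelial cell line. It was found by its gene symbol and is listed with 5 of the 206601 transcripts and as 1 of the 58735 genes in the files. The gene was chosen by its measured expected counts, since 1 of its isoforms was high in the clean air input alone, so every value of an isoform or of the gene in that group is a description and carries no test. Cells at an air-liquid interface were exposed for 2 h to 1 ppm formaldehyde or to humidified clean air and recovered for 6 h. RNA was depleted of ribosomal RNA, and the pool of each exposure was split into an input fraction and a fraction immunoprecipitated with an antibody against 8-oxo-7,8-dihydroguanosine (8-oxoG), an oxidized base. The 4 groups are clean air input (CA_IN), formaldehyde input (FA_IN), clean air immunoprecipitated (CA_IP) and formaldehyde immunoprecipitated (FA_IP), each with 2 biological replicates, numbered 1 and 3. The 4 input libraries held 26.2 to 45.1 M expected counts and the 4 immunoprecipitated libraries 16.9 to 23.7 M (M, 1e6). All groups are 1 cell line, so these values speak for a single origin of cells.

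DDAH1 hydrolyses asymmetric dimethylarginine (ADMA) to citrulline and dimethylamine. ADMA is set free when proteins methylated on arginine by protein arginine methyltransferases (PRMTs) are broken down, and it competes with arginine at the nitric oxide synthases, so that the enzyme is known as a brake on an endogenous inhibitor of nitric oxide formation. An isoform is one of several RNAs that a gene gives through different start sites or splicing, and short reads from a stretch that isoforms share cannot by themselves be ascribed to one of them.

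DDAH1 lies on the minus strand of chromosome 1 in GRCh38. Of its 5 isoforms, 3 are in the GENCODE 44 annotation and differ mainly in where they begin. ENST00000284031 spans chr1:85318485-85465159 with 6 exons and a reading frame of 285 codons, of which the first exon holds 303 coding bases. ENST00000426972 starts 113 kb farther upstream and spans chr1:85318481-85578363 with 7 exons, the first 2 without coding bases, and its frame has 182 codons. ENST00000633113 starts 60.6 kb downstream of ENST00000284031, spans chr1:85321452-85404528 with 6 exons and has 185 codons. The isoforms ENST00000535924 and ENST00000483110 are listed with lengths of 3909 and 3905 bases, a difference of 4 bases, and their exons were not analysed here. The 3 annotated isoforms share 4 exons. The coding sequence into the most 5′ of these, chr1:85358748-85358847, is shown because it is where their coding sequences, which begin differently, meet in 1 frame. Each is given 5′ to 3′ on the coding strand from GRCh38, with lower case for bases from the isoform's own first exon and capitals for bases of the shared exon.
ENST00000284031: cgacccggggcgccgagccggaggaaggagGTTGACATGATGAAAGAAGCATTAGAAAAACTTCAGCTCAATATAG
ENST00000426972: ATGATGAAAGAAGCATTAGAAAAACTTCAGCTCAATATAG
ENST00000633113: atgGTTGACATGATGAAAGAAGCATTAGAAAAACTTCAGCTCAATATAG
The frame of ENST00000426972 thus opens inside the shared exon, that of ENST00000633113 opens with the last 3 bases of its own first exon, and that of ENST00000284031 arrives from a long coding first exon.

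**Figure D1:**
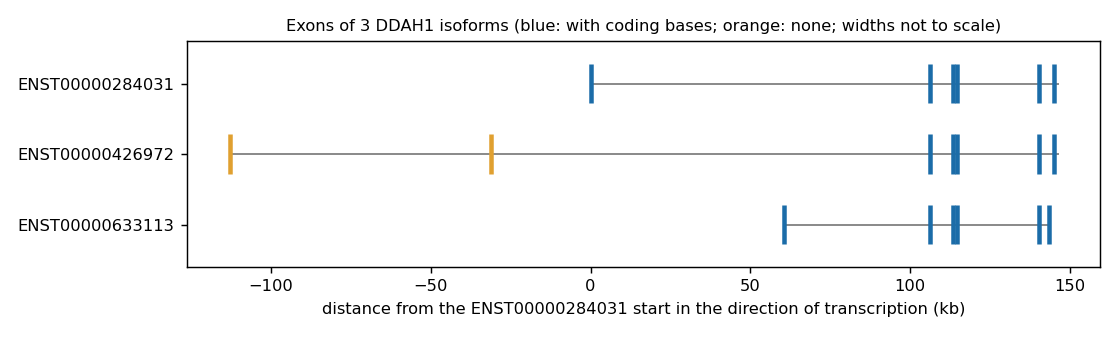
Exon positions of the 3 annotated DDAH1 isoforms (rows) against the distance from the ENST00000284031 start in kb, positive in the direction of transcription. Blue bars mark exons with coding bases and orange bars exons with none; the isoforms have different first exons, with the ENST00000426972 start 113 kb upstream, and share 4 internal exons ahead of last exons that differ in length.

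Summed over isoforms, DDAH1 stood near the same level in all 8 libraries by scaled counts. Levels are given as counts per 1e6 (CPM) of the library total after scaling by edgeR's TMM factors. The gene stood at 57.7 and 67.6 CPM in CA_IN replicates 1 and 3, and at 58.1 and 67.4 CPM in FA_IN. It stood at 52.2 and 59.1 CPM in CA_IP and at 57.8 and 60.6 CPM in FA_IP. Replicate 3 was the higher in each of the 4 groups, and the ranges of all 4 groups overlapped. Means were 62.7 ± 7.02 CPM in CA_IN, 62.7 ± 6.53 in FA_IN, 55.7 ± 4.84 in CA_IP and 59.2 ± 1.95 in FA_IP (SD, n = 2 each). In order of the mean the inputs came first and CA_IP last, and neighbours in that order lay no farther apart than the larger of their SDs. In bulk RNA such as this, fewer cells with a transcript and less of it per cell cannot be told apart. The spread of the gene sum between its lowest and highest library was 0.366 on the log2(CPM + 1) scale, below the median of 0.433 for the 8939 genes with a mean of at least 10 CPM, and 36.8% of those genes had a smaller one. Per length, in transcripts per 1e6 (TPM), the levels were not alike. DDAH1 stood at 4.98 to 6.57 TPM in the input libraries and at 9.20 to 10.48 TPM in the immunoprecipitated ones. Its paralog DDAH2 stood at 2.78 to 3.41 TPM and at 6.53 to 7.74 TPM, and the cause was not tested. DDAH1 stood above DDAH2 in each of the 8 libraries, with a ratio of DDAH1 to DDAH2 between 1.21 and 2.31.

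ENST00000284031, the isoform with the 285-codon frame, held most of the gene's counts. Replicates 1 and 3 of CA_IN held 1964 and 1814 expected counts of it, and those of FA_IN held 1135 and 1735. Among the immunoprecipitated libraries, both of CA_IP held 1060 and those of FA_IP 875 and 1082. On the CPM scale all 8 libraries fell between 44.4 and 51.1, and the groups overlapped. Its share of the gene's counts ran from 73.2% to 86.4%, with the highest shares in the CA_IP libraries.

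ENST00000426972, the isoform with the upstream start and the shorter frame, was a minor one. The CA_IN libraries 1 and 3 held 169 and 85.2 expected counts of it and the FA_IN libraries 99.1 and 122. After immunoprecipitation it had 31.3 and 34.0 counts in clean air and 31.7 and 95.0 in formaldehyde. As shares of the gene these were 2.53% to 7.09%. Both CA_IP libraries, at 1.32 and 1.64 CPM, were lower than each library of the other groups, which ran from 1.75 to 4.12 CPM. A long noncoding RNA gene on the same strand, ENSG00000282057, shares 383 exon bases with DDAH1, and read pairs from those bases could belong to either gene. That gene held between 31.4 and 109 expected counts per library. The short ENST00000633113 had 5.06 expected counts in CA_IN replicate 1, 5.71 in CA_IP replicate 3 and 0 in each of the other 6 libraries.

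ENST00000535924 is the isoform for which the gene was chosen. It held 376 and 578 expected counts in CA_IN replicates 1 and 3, which is 8.62 and 15.8 CPM. In FA_IN it held 1.26 and 3.60, in CA_IP 0.630 and 1.13, and in FA_IP 0.220 and 1.12. It was thus high in both clean air input libraries and at or near 0 in the other 6. The ratio of the summed counts, scaled by library size and TMM, was 139 between CA_IN and FA_IN. Between CA_IN and CA_IP it was 264. The gene was chosen by these counts, so the ratios are descriptions and carry no interval or test. They pool the replicates of each group, which differed in CA_IN, at 8.62 and 15.8 CPM.

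ENST00000483110, 4 bases shorter, showed the opposite pattern. It was listed at 0 in both CA_IN libraries. FA_IN replicates 1 and 3 held 164 and 470 expected counts, the CA_IP libraries 145 and 126, and the FA_IP libraries 139 and 298. Each library outside CA_IN thus held over 100 counts of it, and neither CA_IN library held any. With 3 counts per library put in place of 0 in CA_IN, the FA_IN mean was 135 times that level and the CA_IP mean 80.7 times. These are ratios of group means to a set floor and no bounds on the true fold.

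Added together, the isoforms ENST00000535924 and ENST00000483110 had no such gap. Their sum was 8.62 and 15.8 CPM in the clean air inputs and 6.85 and 13.7 CPM in the formaldehyde inputs. It was 6.14 and 6.11 CPM in the CA_IP libraries and 7.71 and 12.3 CPM in the FA_IP libraries. The FA_IN mean was 0.842 times the CA_IN mean, and the 2 groups overlapped. The CA_IP mean was 0.502 times the CA_IN mean, and there the CA_IP libraries lay below both CA_IN libraries. For the gene sum the same ratios were 1.00 and 0.888, and for ENST00000284031 they were 1.03 and 1.01. As estimated, CA_IN differed from the other groups in which of these 2 isoforms held the counts, and from CA_IP also in the sum. Replicate 1 of FA_IN, at 6.85 CPM, and of FA_IP, at 7.71 CPM, lay below both CA_IN libraries too. RSEM, the program the authors used, divides read pairs that fit several isoforms by a statistical estimate in each library on its own. Its part in this division of counts was not tested.

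**Figure D2:**
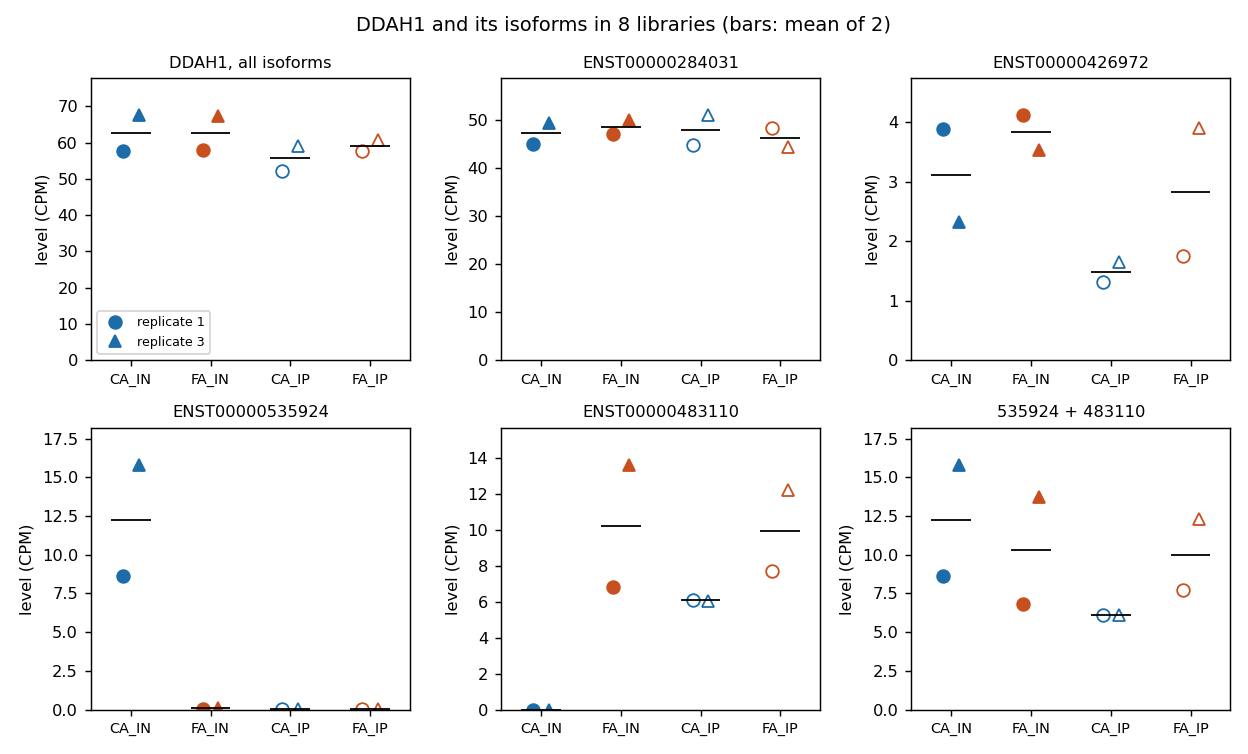
Level in CPM (vertical axes, linear from 0) of DDAH1, 4 of its isoforms and the sum of ENST00000535924 and ENST00000483110 in the 4 groups; circles are replicate 1, triangles replicate 3, filled symbols input, open symbols immunoprecipitated RNA, blue clean air, orange formaldehyde, and bars the mean of 2. ENST00000535924 is above 8 CPM in CA_IN alone, ENST00000483110 is at 0 in CA_IN alone, and their sum lies between 6.11 and 15.8 CPM.

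As a share of the gene's counts, ENST00000535924 made up 14.9% (95% Wilson interval 13.6 to 16.4) and 23.3% (21.7 to 25.0) in CA_IN replicates 1 and 3. In the other 6 libraries its share was between 0.0210% and 0.154%. ENST00000483110 made up 11.7% (10.1 to 13.5) and 20.2% (18.6 to 21.8) in FA_IN. It took 11.7% and 10.2% of the CA_IP libraries' DDAH1 counts and 13.3% and 20.2% of those of FA_IP. Its 0 of 2514 and 0 of 2477 counts in CA_IN have Wilson upper limits of 0.153% and 0.155%. The joint share was higher in replicate 3 than in replicate 1 in CA_IN, FA_IN and FA_IP, by more than the intervals, and in CA_IP it was 11.8% and 10.3%. By group the joint share was 19.1% ± 5.92 in CA_IN, 16.1% ± 6.04 in FA_IN, 11.0% ± 1.00 in CA_IP and 16.8% ± 4.91 in FA_IP (SD, n = 2 each). The intervals and limits take in counting error alone, because the reads carry no molecular identifiers to tell molecules apart and because the counts are themselves estimates. Those in CA_IN are on values by which the gene was chosen, and they do not bound an isoform's true share.

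**Figure D3:**
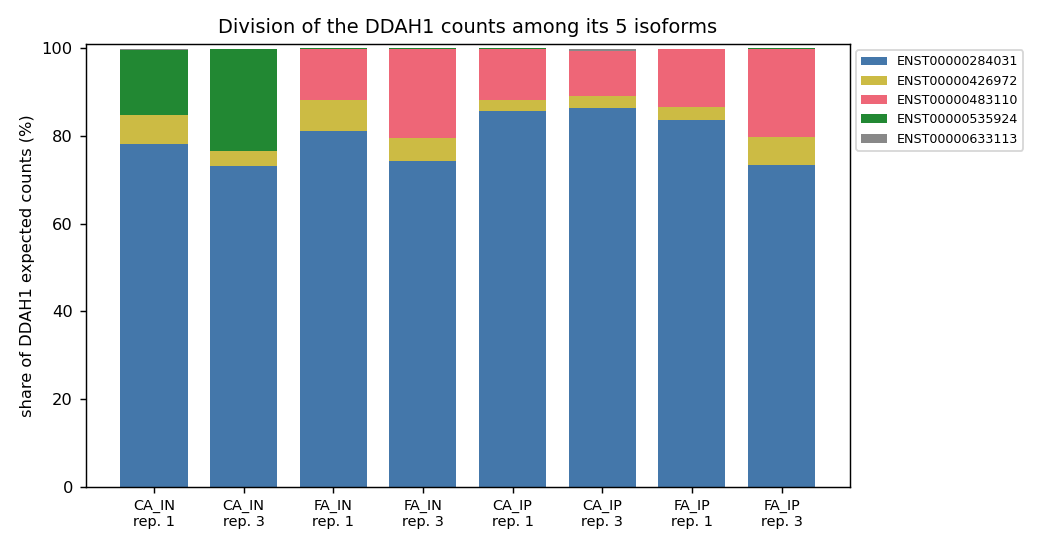
Share of the DDAH1 expected counts in percent (vertical axis) taken by each of the 5 isoforms in each of the 8 libraries, 1 stacked bar per library. ENST00000284031 takes 73.2% to 86.4% throughout. As estimated, ENST00000535924 has a sizeable share in the CA_IN bars alone and ENST00000483110 in the other 6 alone.

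Comparisons that leave out the clean air input were tested, by edgeR's quasi-likelihood test fitted to all 8 libraries with Benjamini-Hochberg adjustment over all features. In the first, FA_IP was set against FA_IN to ask whether DDAH1 RNA was enriched by the antibody after formaldehyde. The log2 fold change of the gene was -0.08 (SE 0.12, 95% interval -0.36 to 0.19, adjusted p = 0.959), which did not pass 0.05. ENST00000284031 differed by -0.08 (interval -0.37 to 0.20), ENST00000426972 by -0.43 (-1.53 to 0.67) and ENST00000483110 by -0.05 (-1.08 to 0.97). The intervals were much wider for the minor isoforms than for the major one. Of all genes, 274 of 18242 (1.50%) were called in this comparison, 6 higher and 268 lower in FA_IP, and of all transcripts 98 of 67873 (0.144%), where DESeq2 called 389 genes and 961 transcripts. The split of the gene calls depended on the model, with 318 higher and 243 lower on library size without TMM. It was 367 and 586 with the replicate number as a block, and 995 and 840 once each RNA pool had its own term. Of all transcripts, 110 (0.162%) were called with the replicate block and 0 with a term for each RNA pool. An isoform thus had little room to be called under either model.

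In the second, FA_IP was set against CA_IP. The gene differed by 0.09 on the log2 scale (SE 0.12, interval -0.19 to 0.37, adjusted p = 0.937). ENST00000426972 was 0.97 higher in FA_IP (SE 0.47, interval -0.16 to 2.10, adjusted p = 0.989) and ENST00000483110 was 0.73 higher (SE 0.43, interval -0.31 to 1.77, adjusted p = 0.989), and neither passed the test. For ENST00000483110 both FA_IP libraries, at 7.70 and 12.2 CPM, lay above both CA_IP libraries, at 6.11 and 6.05 CPM. In this comparison edgeR called 0 of 18242 genes (0%) and 0 of 67873 transcripts (0%), with 871 genes and 3009 transcripts at an unadjusted p under 0.05, and DESeq2 called 4 genes and 303 transcripts. With the replicate number as a block, edgeR called 379 genes (2.08%, 26 higher and 353 lower in FA_IP) and 0 transcripts, and DDAH1 stayed at 0.09 with an adjusted p of 0.649. Of the 5 DDAH1 transcripts, 3 passed the filter of 10 counts in 2 libraries outside the clean air input, and 0 of these 3 were called by edgeR or DESeq2 or had an unadjusted edgeR p under 0.05 in either comparison. ENST00000535924 passed that filter through CA_IN alone, and at 0.220 to 3.60 counts in the libraries compared no fold is given for it.

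**Figure D4:**
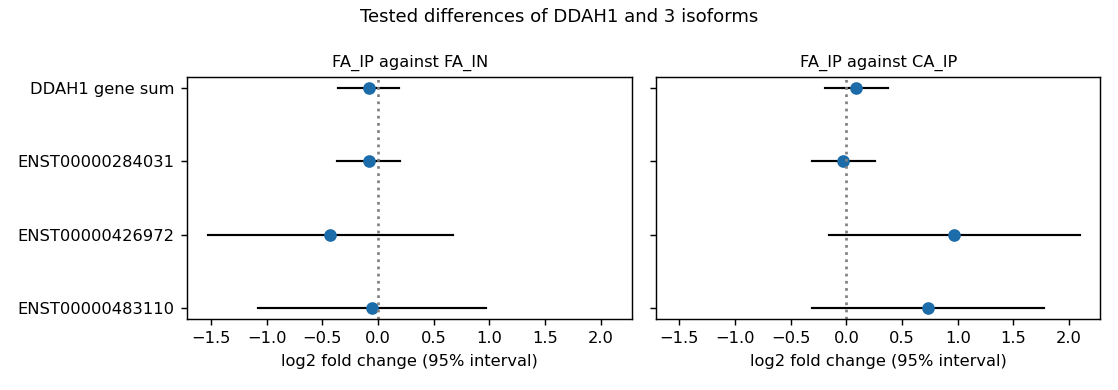
Log2 fold change (horizontal axes, points) with its 95% interval (lines) for DDAH1 and 3 of its isoforms in FA_IP against FA_IN and in FA_IP against CA_IP. All 8 intervals include 0, and they are widest for ENST00000426972 and ENST00000483110.

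At 100 counts or more, few isoforms were confined to 1 group in these libraries. How many of the transcripts tested reached 100 counts in both libraries of a group was not counted, so no rate is given. Of the 67873 transcripts tested, 1 had at least 100 counts in both CA_IN libraries and at most 3 in each of the other 6, ENST00000401393 of INO80, and 1 did so for FA_IN, ENST00000642424 of DDX3X, while CA_IP and FA_IP had 0. ENST00000535924 missed this limit by its 3.60 counts in FA_IN replicate 3. With at most 10 counts elsewhere, a limit chosen after its values were seen, CA_IN had 3, ENST00000535924, the INO80 transcript and ENST00000358808 of CLIP1, and FA_IN, CA_IP and FA_IP had 1, 0 and 0. In each of these genes the sum over isoforms was within 1.5-fold of its mean in the other 6 libraries, with ratios of 0.962 for INO80, 0.912 for DDX3X, 1.05 for CLIP1 and 1.06 for DDAH1. DDAH1 was the 1 gene among them with a second isoform of the exactly opposite pattern, at most 10 counts in both CA_IN libraries and at least 100 in each other. The input libraries were sequenced more deeply than the immunoprecipitated ones, which makes 100 counts easier to reach there. A partner had to reach 100 counts in each of the other 6 libraries, the shallower ones included. The INO80 transcript, at 106 and 108 counts in CA_IN, left little room for a partner at its own level. The partner search therefore does not set DDAH1 apart from genes with scarcer transcripts.

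The pattern of ENST00000535924 across the 8 libraries was shared closely by scarcer transcripts of other genes. By Pearson r of log2(CPM + 1), 144 of 67869 other transcripts were above 0.9, and the closest 5, at r from 0.999 to 1.000, included transcripts of ZNF362 (33.8 and 39.2 counts in CA_IN), APTX (30.4 and 35.3), ASPM (46.5 and 57.4) and GPR146 (11.0 and 11.7), each at 0 or below 1 count in the other 6 libraries. These correlations rest on the 2 CA_IN libraries, which are separate from the rest, and describe the shape alone. The transcripts named passed the count filter through CA_IN alone, so a high r follows from how they were admitted. How many transcripts at such low counts were confined to another group was not counted. For the gene sum the closest were TSPAN6 (r = 0.988), DENND4A (0.987), RNFT1 (0.979), CARNMT1 (0.979) and ERCC8 (0.977), out of 18241 genes, of which 162 were above 0.9. TSPAN6 ran from 29.0 to 38.1 CPM with replicate 3 the higher in every group, as DDAH1 did. All share the same 8 libraries and the same scaling.

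Genes around the DDAH1 reaction were taken from a list of 39 for the making and breakdown of methylarginines, arginine supply and nitric oxide. By mean CPM the highest gene was PRMT1 among the type I methyltransferases, which make ADMA (256 CPM), PRMT5 among types II and III (143), CAV1, the caveolin that binds nitric oxide synthase (605), SLC3A2, the heavy chain of amino acid transporters (550), and PDE5A in signalling (5.72). Their CPM is not per length, so it does not rank genes of different roles. The synthases themselves were not tested, being too low at this depth. NOS1 and NOS3 had at most 1 count in any library and NOS2 had 0. DDAH1 and DDAH2 were tested in the breakdown role, while AGXT2, a mitochondrial enzyme that also degrades ADMA, had at most 6 counts.

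Of the 39 list genes 31 were tested, or 30 without DDAH1 where the clean air input takes part, and edgeR called 0 in each of 4 comparisons. In FA_IN against CA_IN, where 1 of all genes (0.00548%) was called, 0 of 30 list genes had an unadjusted p under 0.05, and their median log2 fold change was 0.05 beside 0.02 over all genes. In FA_IP against CA_IP 0 of 31 had one, with a median of 0.03 beside -0.01. In FA_IP against FA_IN 6 of 31 had an unadjusted p under 0.05, as did 9.10% of all genes, with a median of 0.10 beside 0.00. In CA_IP against CA_IN, where 1.91% of all genes were called, 7 of 30 had one, as did 12.6% of all genes, with a median of 0.13 beside 0.02. DESeq2 called 0, 0, 0 and 3 list genes in these 4 comparisons, where it called 3, 4, 389 and 505 of all genes, the 3 being PRMT1, NOSIP and ASL in CA_IP against CA_IN. FA_IP against FA_IN and FA_IP against CA_IP share the FA_IP libraries.

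Input and immunoprecipitated RNA of 1 exposure were split from 1 pool, and with the replicate number as a block in edgeR more list genes were called. In FA_IP against FA_IN 5 of 31 were called, 4 higher and 1 lower in the immunoprecipitated RNA, where 5.22% of all genes were called, and in CA_IP against CA_IN 6 of 30, 5 higher and 1 lower, where 10.6% were. PRMT1 rose by 0.36 and 0.45 on the log2 scale in formaldehyde and clean air (edgeR adjusted p = 0.0161 and 0.00269). NOSIP, a ligase that binds nitric oxide synthase, rose by 0.35 and 0.48, ASL, which makes arginine in the urea cycle, by 0.33 and 0.48, and SLC3A2 by 0.26 and 0.33 (adjusted p from 0.00328 to 0.0439). PTS, an enzyme of tetrahydrobiopterin synthesis, fell by 0.47 and by 0.38 on that scale (adjusted p = 0.00481 and 0.0117). SPR, which completes that synthesis, was called in clean air at 0.45 (adjusted p = 0.0219) and was 0.40 (adjusted p = 0.0655) in formaldehyde. With each RNA pool as its own block, a model chosen after the data were seen, 9 of 31 and 11 of 30 list genes were called, where 10.1% and 17.4% of all genes were. DDAH2 then rose by 0.38 and 0.35 (adjusted p = 0.0283 and 0.0254). The methyltransferase CARM1 and ASS1, the enzyme before ASL, were also higher in both treatments, as was SPR, and PRMT2 and PRMT5 were called in clean air at 0.23 and 0.22. DDAH1 was not called with either block, at -0.08 and adjusted p = 0.664 and 0.575 in FA_IP against FA_IN. The difference between the treatments in the immunoprecipitated to input ratio was tested without a block and with the replicate block. It called 0 of 30 list genes in both, with 0 at an unadjusted p under 0.05, where 0 and 3 of all 18242 genes were called.

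**Figure D5:**
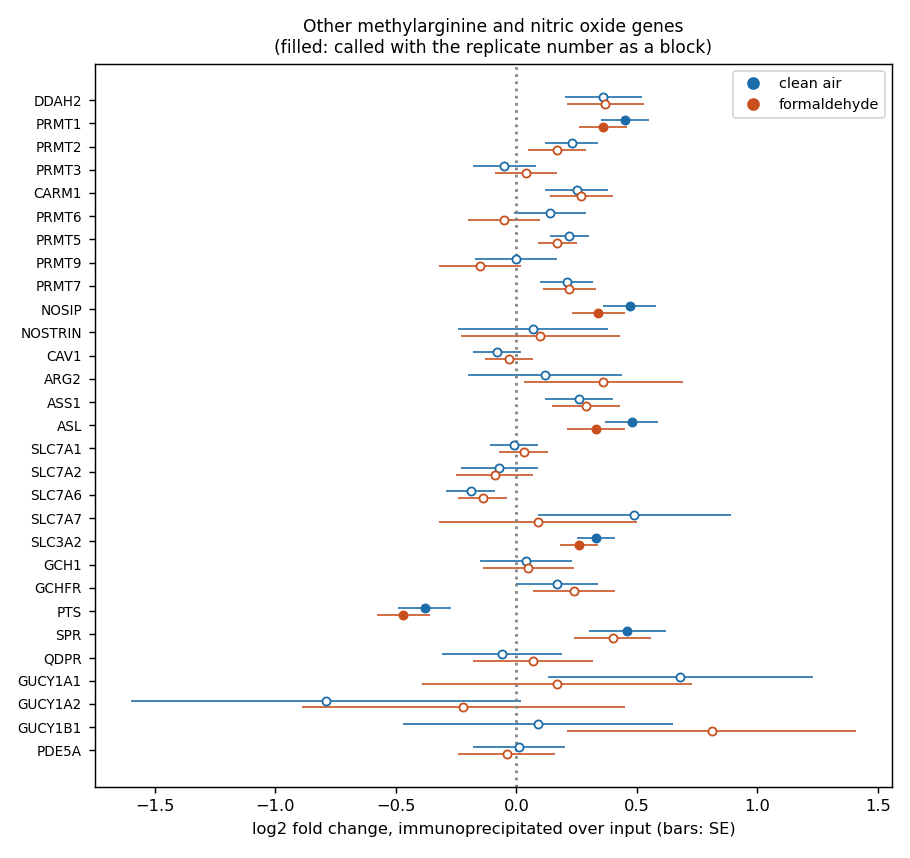
Log2 fold change of immunoprecipitated over input RNA (horizontal axis, points, with bars for the SE) for 29 of the 30 tested list genes other than DDAH1, in clean air (blue) and formaldehyde (orange); filled points were called with the replicate number as a block. PRMT1, NOSIP, ASL and SLC3A2 are filled above 0 and PTS below 0 in both treatments.

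Of the 4 nearest protein-coding genes, 0 passed the test without a block or had an unadjusted p under 0.05. Over the 4 comparisons, 0% to 1.91% of all genes passed it and 3.35% to 12.6% had such a p. BCL10 and C1orf52 on the downstream side and CCN1 and ZNHIT6 on the upstream side had edgeR adjusted p-values from 0.445 to 0.984 in the 4 comparisons. BCL10, a signalling adaptor, had the largest difference, -0.32 (SE 0.15) in CA_IP against CA_IN. With the replicate block 0 of 4 were called, where 1.41% to 10.6% of all genes were. With the RNA pool block BCL10 was lower in CA_IP than in CA_IN (-0.32, edgeR adjusted p = 0.00757), where 17.4% of all genes were called. With that block CCN1, a matricellular protein, was lower in FA_IP than in FA_IN (-0.27, edgeR adjusted p = 0.0206), where 10.1% were. The epithelial identity of the line held in all 8 libraries, with KRT5 from 710 to 1400 CPM and CDH1 from 121 to 143 CPM, while the leukocyte marker PTPRC was at most 0.0546 CPM and the endothelial VWF at most 0.191 CPM. Of the other markers of those cell types CD68 ran from 4.09 to 8.70 CPM and PECAM1 from 0.298 to 0.710 CPM, and the fibroblast genes COL1A1 and PDGFRB from 7.14 to 10.8 and from 1.99 to 2.98 CPM. Libraries of 1 group correlated at 0.981 to 0.986 and those of different groups at 0.954 to 0.995 (Pearson r across genes on the log2 scale, and genes are not independent replicates).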

How the data were processed

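Total and 8-oxoG-immunoprecipitated RNA of 8 libraries was sequenced by the authors as 75-bp read pairs. The authors trimmed reads with cutadapt, aligned them with STAR 2.6.0a in 2 passes to GRCh38 with Ensembl 94 annotation, and ran RSEM 1.2.25 without a strand setting. The deposited tables hold, per transcript, the expected count (an estimated count, not normalized), an effective length in bases, TPM (per length and 1e6 transcripts) and the isoform's percent of its gene. RSEM estimates each library on its own. The authors also deposited 3 tables of DESeq2 comparisons with fold changes and p-values, 2 of them identical, which were not used. The sample descriptions and the extraction protocol name different antibody clones. The replicate numbers come from the names of the deposited tables.

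Expected counts were summed by gene for gene results, rounded, and kept where at least 10 in at least 2 libraries. Groups were compared by the quasi-likelihood test of edgeR 4.0.16 after TMM scaling, with a term for each of the 4 groups, with limma 3.58.1 in R 4.3.3 and Benjamini-Hochberg adjustment with a limit of 0.05, checked on simulated counts. DESeq2 1.42.0 was an alternative. Gene symbols were matched for 58207 of 58735 genes through GENCODE 44, which is of the same assembly but a later annotation than the authors'. Intervals for shares are Wilson intervals at 95%, and ratios of counts are given without intervals. The gene, the gene lists and the tests were chosen with earlier results of these data known. Isoforms with a mean of at least 10 counts were given library by library, and list genes were named where called with or without a block or highest in their role, except 1 list gene that is counted but not reported here. Other alternatives were no filter, scaling by library size without TMM, 4 libraries at a time, length-scaled counts, a replicate block, an RNA pool block and leaving out each library. With 2 libraries against 2 an exact permutation test cannot go below p = 0.333, so none was used. Same-numbered libraries deviated from their group means together, with correlations of 0.449 to 0.777 over 10558 genes in the 6 pairs of groups. The study's description of 1 pool split into both fractions pairs input with immunoprecipitated RNA, and clean air was run in parallel with formaldehyde, but whether a number marks 1 exposure day in both treatments is not given in the sources used here.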

Additional observations from a re-analysis of the deposited data

How the results depend on the processing

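With 2 libraries per group, the DDAH1 differences are set by few values, and the division of counts between ENST00000535924 and ENST00000483110 cannot be checked without the reads. DDAH1 and its 3 tested isoforms were called under 0 of the alternatives run for them. The blocks called few or no transcripts of any gene. Length-scaled counts were run for genes alone and the RNA pool block for immunoprecipitated against input RNA alone. Without TMM, on library size alone, the median of all genes moved by 0.17 in FA_IP against FA_IN and by 0.15 in CA_IP against CA_IN on the log2 scale. With that scaling, FA_IP against FA_IN was 0.08 for the DDAH1 gene, 0.10 for ENST00000284031 and 0.12 for ENST00000483110 in place of negative values, all below the shift of the median, and the FA_IP level was 62.2 CPM. Leaving out each library gave the DDAH1 gene -0.18 to 0.04 in FA_IP against FA_IN and turned it positive without FA_IN replicate 3. It gave 0.00 to 0.18 in FA_IP against CA_IP. In FA_IP against FA_IN, ENST00000483110 ran from -0.48 to 0.57 over the libraries left out and was positive without FA_IN replicate 3 (0.57) or FA_IP replicate 1 (0.25), and ENST00000426972 ran from -1.11 to 0.03 and was positive without FA_IP replicate 1. In FA_IP against CA_IP, ENST00000284031 ran from -0.12 to 0.10 and was positive without CA_IP replicate 3 (0.10) or FA_IP replicate 3 (0.05), while ENST00000426972 ran from 0.30 without FA_IP replicate 3 to 1.44 without FA_IP replicate 1 and ENST00000483110 from 0.37 to 1.04 without the same libraries. A library left alone in its group was assumed to vary like the other groups. The causes were not tested.

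The count of list genes called was 0 in FA_IP against FA_IN and became 3 with library size, 5 with the replicate block, 9 with the RNA pool block and 1 with length-scaled counts. In CA_IP against CA_IN it was 0 and became 3 with DESeq2, 5 with library size, 1 without the filter, 6 with the replicate block, 11 with the RNA pool block and 1 with length-scaled counts. The calls over all genes moved too, from 274 and 349 in these 2 comparisons to 561 and 1157 with library size, 953 and 1941 with the replicate block, 1835 and 3179 with the RNA pool block and 275 and 319 with length-scaled counts. Without the filter 578 and 686 were called, or 1.62% and 1.92% of all genes. With TMM, the filter and no block, the CA_IP against CA_IN calls were 27 higher and 322 lower, but 821 and 336 with library size and 1235 and 706 with the replicate block. The replicate block also moved FA_IP against CA_IP from 0 to 379 genes and FA_IN against CA_IN from 1 to 258, and in these 2 comparisons it called 0 list genes. Shares per effective length moved by less than the spread between replicates for ENST00000535924, ENST00000483110 and ENST00000426972, and ENST00000284031 moved further in CA_IP, from 86.1% to 84.8%, as did the short ENST00000633113, from 0.233% to 1.70% there and from 0.101% to 0.756% in CA_IN. ENST00000535924 could not be fitted with 4 libraries at a time or without either CA_IN library, since it then fell below the filter.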
